A study of Mus musculus with 8 samples.

Results

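The dual-specificity phosphatases of MAP kinases were examined in multipotent progenitors of Elektra and wild-type mice. These are the 10 genes Dusp1, Dusp2, Dusp4, Dusp5, Dusp6, Dusp7, Dusp8, Dusp9, Dusp10 and Dusp16, chosen by symbol, and all 10 were found among the 30918 genes measured. The Elektra group held 4 arrays from mice of genotype Slfn2 elektra/elektra, and the control group held 4 arrays from littermates of genotype Slfn2 wt/wt. Both are on a C57Bl/6 background and were untreated, and the labels give no age. Elektra is a germline allele of the Schlafen gene Slfn2 that removes its function, and every cell of the animal has it. The cells are bone marrow progenitors of the phenotype LSK CD48- CD150-, a stage just below the long-term stem cell. Per the labels, 2 mice of a genotype were pooled in each sample, while the series text speaks of 4 mice per genotype. The comparison asks how expression in these progenitors differs when Slfn2 function is lost.

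MAP kinases are switched on by phosphorylation of a threonine and a tyrosine in their activation loop, and these phosphatases remove both phosphates. They fall into 3 groups by location and substrate. Dusp1, Dusp2, Dusp4 and Dusp5 encode nuclear enzymes whose transcripts are induced within minutes to hours of a stimulus. Dusp6, Dusp7 and Dusp9 encode cytoplasmic enzymes that act mainly on the kinase ERK. Dusp8, Dusp10 and Dusp16 encode enzymes that prefer the stress kinases JNK and p38. Several are transcribed in answer to the kinases they switch off and so form a negative feedback. In blood progenitors ERK lies downstream of the receptors Kit and Flt3.

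Promoter sequences are shown for Dusp1, Dusp2 and Dusp5, the members whose signal varied most between arrays, and for Dusp8, whose mean signal lay within the range of silent genes. Each runs 5′ to 3′ from 250 bases before to 50 bases after an annotated start, from RefSeq on build GRCm38.p6, where 8 of the 10 genes had an entry. Capitals mark the core TGACG of the cAMP response element on either strand (read as CGTCA on the other), and the CArG box, the binding motif of serum response factor. The full element TGACGTCA holds 2 overlapping cores.
Dusp1 (chr17:26508423-26508722, minus strand): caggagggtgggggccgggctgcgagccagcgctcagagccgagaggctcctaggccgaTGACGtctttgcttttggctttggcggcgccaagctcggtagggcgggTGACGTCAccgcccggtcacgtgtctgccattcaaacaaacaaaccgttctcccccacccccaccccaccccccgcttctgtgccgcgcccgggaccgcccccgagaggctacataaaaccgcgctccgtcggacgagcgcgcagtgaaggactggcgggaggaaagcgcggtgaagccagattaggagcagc
Dusp2 (chr2:127335909-127336208, plus strand): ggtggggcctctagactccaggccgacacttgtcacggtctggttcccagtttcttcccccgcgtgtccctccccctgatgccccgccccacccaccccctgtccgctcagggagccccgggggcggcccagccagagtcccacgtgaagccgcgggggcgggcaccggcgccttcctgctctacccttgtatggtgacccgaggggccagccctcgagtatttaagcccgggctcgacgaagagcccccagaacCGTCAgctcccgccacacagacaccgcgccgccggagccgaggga
Dusp5 (chr19:53528895-53529194, plus strand): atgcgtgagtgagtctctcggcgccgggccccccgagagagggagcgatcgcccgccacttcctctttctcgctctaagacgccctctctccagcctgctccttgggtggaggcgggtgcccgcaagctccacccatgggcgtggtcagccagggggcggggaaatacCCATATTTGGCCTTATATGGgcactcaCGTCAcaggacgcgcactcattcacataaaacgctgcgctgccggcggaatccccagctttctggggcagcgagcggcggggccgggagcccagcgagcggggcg
Dusp8 (chr7:142095235-142095534, minus strand): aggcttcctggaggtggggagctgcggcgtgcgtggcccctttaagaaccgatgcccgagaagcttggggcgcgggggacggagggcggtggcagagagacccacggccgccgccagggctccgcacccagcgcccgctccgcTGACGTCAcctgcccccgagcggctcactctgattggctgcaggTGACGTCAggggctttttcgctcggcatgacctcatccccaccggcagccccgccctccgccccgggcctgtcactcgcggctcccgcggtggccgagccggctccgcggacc

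In the Dusp1 window the full element begins 143 bases before the start, with a lone core 191 bases before it. The Dusp2 window holds 1 core, 6 bases after the start. The Dusp5 window holds 2 adjoining CArG boxes, 82 and 72 bases before the start, and a core 55 bases before it. The Dusp8 window holds 2 full elements, 107 and 63 bases before the start. Among 32851 RefSeq promoters of the same length, 20.8% hold the core, 1.79% the full element and 1.63% a CArG box. Windows with 2 or more CArG boxes number 6 of these, and windows with 2 or more full elements number 13. Of the 8 members with an entry, 5 hold a core, 2 the full element and 1 a CArG box. These are matches of letters, and binding was not measured.

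Values are log2 intensities of 1 probe set per member, and as probes differ in brightness the members' levels are not ranked against each other. Array medians lay between 2.02 and 2.13. Elektra replicate 2 stood apart, its upper quartile being 3.63 (3.80 to 3.83 elsewhere) and its highest correlation with another array 0.973 (0.984 to 0.988 elsewhere). Progenitor markers were strong (mean of 6 genes 8.07 to 8.28 per array). Ms4a1 and Klrb1c, markers of B cells and NK cells, lay in the silent range described below, but other markers did not. Above it lay 4 of 9 B and plasma cell markers, with Xbp1 at 6.33, and 1 of 7 T and NK cell markers, Nkg7 at 6.28. So did 3 of 6 monocyte and macrophage, 4 of 6 erythroid and 5 of 6 megakaryocyte markers. Of the 6 progenitor markers, 1 was lower and 0 higher in Elektra at an unadjusted p under 0.05, where 2.87% and 2.63% of all genes were. That marker was Flt3, at 7.09 ± 0.16 (Elektra) and 7.43 ± 0.07 (wild type) (SD, n = 4; limma adjusted p = 0.884). The mean level of 8 neutrophil markers ranged from 2.31 to 3.56 in Elektra and from 2.25 to 4.21 in wild type, highest in wild-type replicate 2 and Elektra replicate 4. Slfn2 itself lay between 1.99 and 2.18 in Elektra and between 1.68 and 2.44 in wild type. Its means, 2.10 and 2.08, were close to 2.09, the upper limit of the silent range described below. As Elektra is known as a coding change, these values do not check the labels.

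The mean signal of most members lay above that of silent genes. As a reference for silence, 1459 olfactory and vomeronasal receptor genes were used, whose mean levels had a median of 1.07 and a 95th percentile of 2.09 on the log2 scale. The means of 9 members lay above that percentile. The exception was Dusp8, with a mean of 1.99 over all arrays, above 93.9% of the receptor genes. Dusp9, at 2.31, lay above 96.6% of them, and Dusp10, at 2.58, above 97.7%, so these are the members just clear of that line. As probes differ in brightness, this line is a rough guide.

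**Figure D1:**
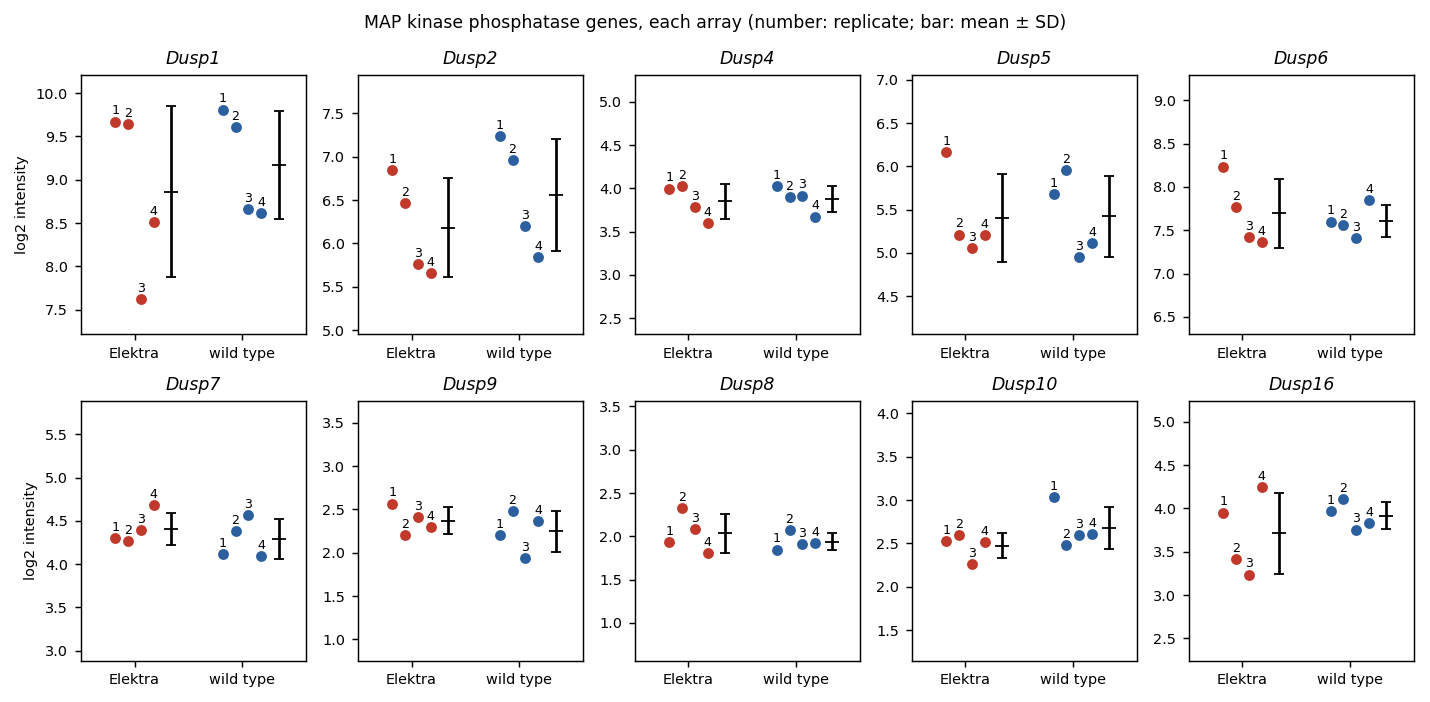
Log2 intensity (vertical axis, each panel spanning 3 log2 units) of the 10 phosphatase genes in the 4 Elektra (red) and 4 wild-type (blue) arrays, each point numbered by replicate, with mean and SD at the right of each group. The genotypes overlap in all 10 panels, and the points of Dusp1, Dusp2 and Dusp5 are the most widely spread.

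No member passed the test of a genotype difference. Of the 10 genes, 0 passed an adjusted p of 0.05 (limma, Benjamini-Hochberg over all 30918 genes), where 0% of all genes did. At an unadjusted p under 0.05 there were again 0 of 10, where 5.5% of all genes passed, 2.63% higher and 2.87% lower in Elektra. The genotypes did not overlap for 0 members, where that held for 3.23% of all genes. The median log2 change over the 10 was -0.02 and that over all genes was 0.01. Positive values were held by 4 members and negative by 6, where 16654 and 14264 of all 30918 genes had them. In bulk RNA, fewer cells expressing a gene and less RNA per cell cannot be told apart. The labels speak of biological replicates, and the animals behind them are not settled. A p thus sets the genotype difference against the spread of these samples within each genotype.

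The inducible nuclear group held the widest spread. Dusp1, the founding member, which acts on p38, JNK and ERK and is a classic immediate-early gene, read 9.67, 9.64, 7.62 and 8.51 in Elektra replicates 1 to 4 and 9.81, 9.60, 8.66 and 8.62 in wild-type replicates 1 to 4. Replicates 1 and 2 of both genotypes were high and replicates 3 and 4 of both were low, so that the genotypes overlapped. From the lowest to the highest array the signal spanned 2.19 log2 units, or 4.56-fold. Elektra averaged 8.86 ± 0.99 and wild type 9.17 ± 0.62 (SD, n = 4). The log2 change was -0.31 (95% interval -1.34 to 0.71, limma adjusted p = 0.936). The sign turned without Elektra replicate 3, the lowest array, when the log2 change was 0.10 (limma adjusted p = 0.971). Leaving that array out also left fewer low arrays in Elektra than in wild type.

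Dusp2, a nuclear phosphatase found mainly in blood and immune cells, read 6.85, 6.46, 5.76 and 5.66 in the Elektra arrays and 7.24, 6.96, 6.20 and 5.84 in the wild-type arrays, in replicate order. The same 4 arrays were high as for Dusp1. The means were 6.18 ± 0.57 and 6.56 ± 0.65 (SD, n = 4). The log2 change was -0.38 (95% interval -1.14 to 0.39, limma adjusted p = 0.903), the widest gap between genotypes among the 10 genes. Leaving out 1 array at a time kept it negative, between -0.62 and -0.15.

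Dusp5, a nuclear phosphatase specific for ERK, read 6.16, 5.21, 5.06 and 5.20 in Elektra and 5.68, 5.95, 4.96 and 5.11 in wild type. The 4 highest arrays were again those numbered 1 and 2, though Elektra replicate 2 was barely above Elektra replicate 4. The means were almost equal, 5.41 ± 0.51 and 5.42 ± 0.47 (SD, n = 4), with a log2 change of -0.02 (95% interval -0.64 to 0.61, limma adjusted p = 0.995).

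Dusp4, a nuclear relative of Dusp1, varied little. It read 4.00, 4.03, 3.78 and 3.60 in Elektra and 4.02, 3.90, 3.92 and 3.67 in wild type. Replicate 4 was the lowest array of each genotype. Its log2 change was -0.03 (95% interval -0.31 to 0.25). Among the 15459 genes above the median level, the SD over the 8 arrays placed Dusp1 at the 99.0th percentile, Dusp2 at the 97.5th, Dusp5 at the 93.0th and Dusp4 at the 23.4th. These percentiles are of variability among arrays of both genotypes and not of the genotype difference.

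Most of the listed immediate-early genes, the first transcripts a stimulated cell makes, were high and low in the same arrays. Egr2, Egr3 and Maff were not. The mean of the 18 listed genes was 6.19, 5.91, 4.33 and 4.62 in the Elektra arrays and 5.96, 5.84, 4.78 and 4.61 in the wild-type arrays. Fos, an AP-1 subunit, read 7.67, 7.69, 5.96 and 6.60 in Elektra and 8.01, 7.65, 6.51 and 6.73 in wild type. Jun, its partner, read 10.12, 10.09, 7.68 and 8.85 in Elektra and 10.20, 9.997, 9.001 and 8.45 in wild type. Egr1, a zinc finger factor induced through ERK, read 6.34, 6.36, 3.82 and 4.32 in Elektra and 6.34, 6.12, 4.82 and 4.06 in wild type. For each of the 3 the lowest value in the high arrays was at least 0.921 log2 units above the highest in the low arrays. The labels name no sort day or other batch that would tie the replicate numbers together, and the part of such handling in these values was not tested. As the values of these genes fall into 2 sets of arrays, no correlation between genes over the arrays is given.

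**Figure D2:**
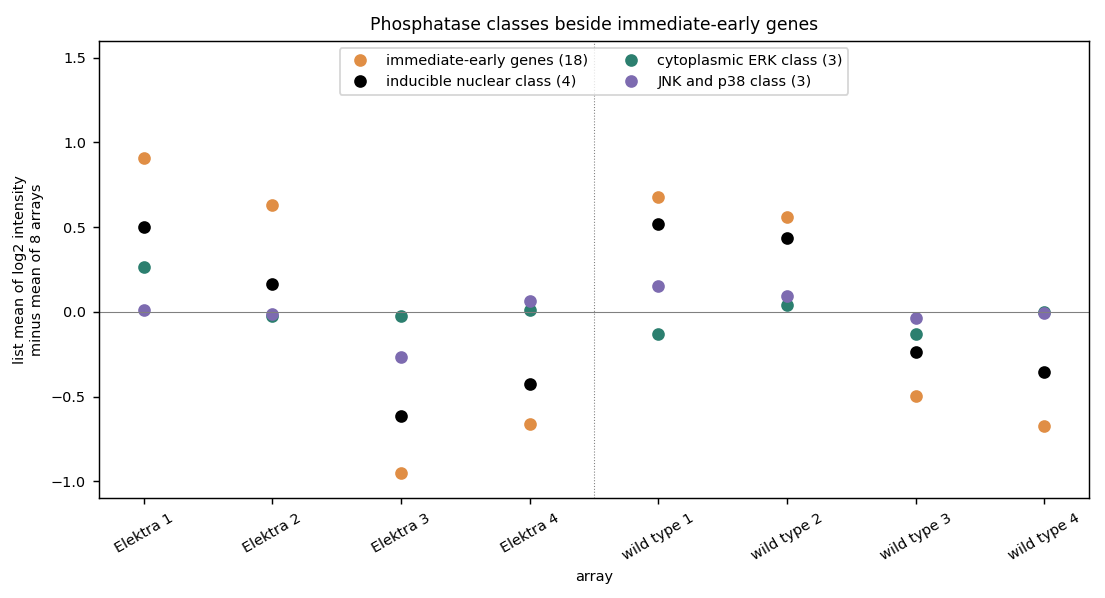
Mean log2 intensity of each list in each array, after subtracting the list's own mean over the 8 arrays (vertical axis), for the 18 immediate-early genes and the 3 groups of phosphatases. The inducible nuclear group is high in replicates 1 and 2 and low in replicates 3 and 4 of both genotypes, as the immediate-early list is, while the other groups stay nearer to 0.

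The genes nearest to the variable members were sought among 12681 genes above the median level (Gm, Rik and LOC names left out), by the root mean square difference of log2 values after centring each gene on its mean over the 8 arrays. For Dusp1 the nearest was Fos, at 0.136 log2 units, followed by Rgs1 (0.156), which encodes a regulator of G-protein signalling, Zfp36 (0.179), which encodes an RNA-binding protein that destabilises cytokine transcripts, and Nfkbiz (0.181), which encodes a nuclear IκB protein. For Dusp2 it was Ier2 (0.158), an immediate-early gene, with Sik1 (0.188), a salt-inducible kinase gene, Rgs2 (0.189) and Jund (0.194), an AP-1 subunit gene, after it. Dusp1 itself came 124th in the order from Dusp2. For Dusp5 it was Tra2a (0.0789), a splicing factor gene, with Slc38a2 (0.139), an amino acid transporter gene, Tiparp (0.147) and Zbtb10 (0.165) after it. The measure reads size as well as shape, so a gene that moves the same way by another amount ranks low.

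**Figure D3:**
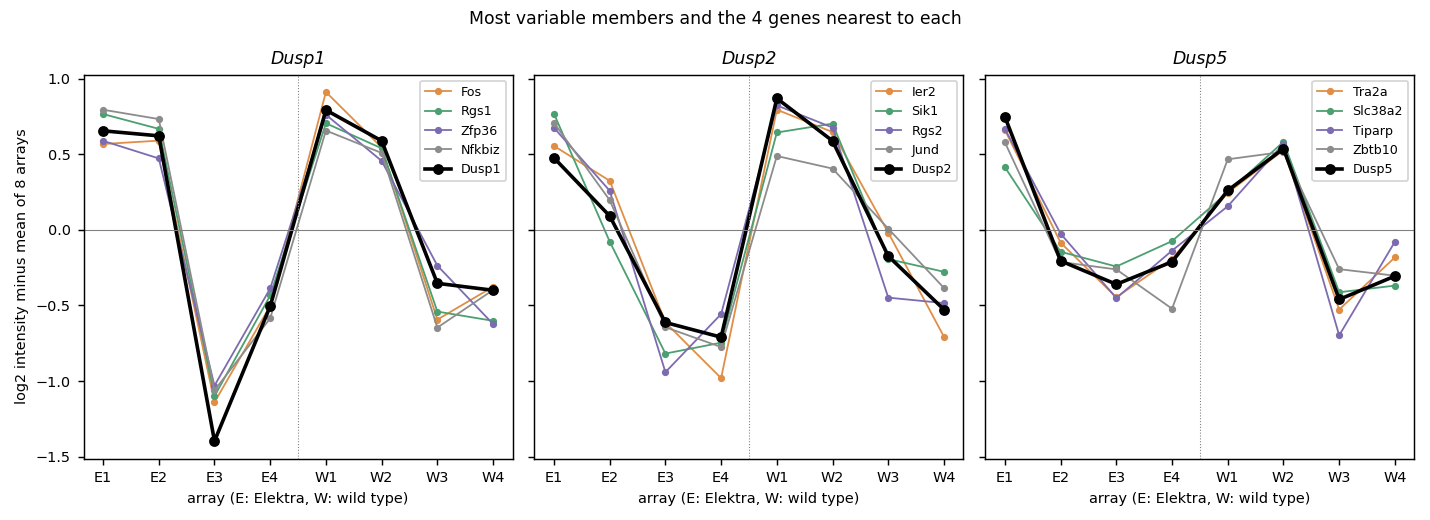
Log2 intensity minus the gene's mean over the 8 arrays (vertical axis) for Dusp1, Dusp2 and Dusp5 (black) and the 4 genes nearest to each (colours), in Elektra arrays E1 to E4 and wild-type arrays W1 to W4; lines only join points of a gene. Fos differs from Dusp1 by 0.136 log2 units on the root mean square, and Tra2a from Dusp5 by 0.0789.

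The cytoplasmic ERK phosphatases all had small positive differences. Dusp6, which dephosphorylates ERK and is induced by ERK signalling, read 8.23, 7.76, 7.42 and 7.36 in Elektra and 7.60, 7.56, 7.41 and 7.85 in wild type. The Elektra arrays spanned 0.87 log2 units and the wild-type arrays 0.44, with Elektra replicate 1 highest and Elektra replicate 4 lowest of all. The log2 change was 0.09 (95% interval -0.33 to 0.51, limma adjusted p = 0.957). It was -0.09 without Elektra replicate 1.

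Dusp7, a close relative of Dusp6, read 4.30, 4.27, 4.39 and 4.68 in Elektra and 4.11, 4.38, 4.57 and 4.09 in wild type. Its high arrays, Elektra replicate 4 and wild-type replicate 3, were among the low ones for Dusp1. The log2 change was 0.12 (95% interval -0.19 to 0.43), and 0.0328 without Elektra replicate 4. Dusp9, known for its part in placental development and X-linked, read 2.57, 2.20, 2.41 and 2.30 in Elektra and 2.20, 2.48, 1.94 and 2.36 in wild type, a log2 change of 0.12 (95% interval -0.18 to 0.42). It was 0.0222 without wild-type replicate 3. Its arrays followed neither genotype nor replicate number.

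Among the phosphatases of JNK and p38, Dusp10 had the smallest unadjusted p of all 10 members, 0.167 in limma. Dusp10, which restrains JNK in T cells and other immune cells, read 2.52, 2.60, 2.26 and 2.51 in Elektra and 3.03, 2.48, 2.59 and 2.61 in wild type. Elektra replicate 3 was low and wild-type replicate 1 high, and the other 6 arrays lay within 2.48 to 2.61. The log2 change was -0.20 (95% interval -0.51 to 0.10, limma adjusted p = 0.888), and -0.0847 without wild-type replicate 1.

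Dusp16, which acts on JNK and p38, read 3.95, 3.41, 3.24 and 4.25 in Elektra and 3.96, 4.11, 3.76 and 3.83 in wild type. The Elektra arrays spanned 1.01 log2 units, holding both the highest and the lowest value, and the wild-type arrays spanned 0.35. The log2 change was -0.20 (95% interval -0.66 to 0.26). It was -0.0445 without Elektra replicate 3 and -0.38 without Elektra replicate 4. Without Elektra replicates 2 and 3 and wild-type replicate 4 together it was 0.16. Dusp8, a stress-kinase phosphatase known mainly from brain and heart, read 1.93, 2.32, 2.08 and 1.80 in Elektra and 1.85, 2.07, 1.91 and 1.92 in wild type. Its mean lay within the silent range, and Elektra replicate 2 alone lay above the line of 2.09. Its log2 change was 0.10 (95% interval -0.17 to 0.37), and 0.00385 without Elektra replicate 2.

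The intervals show what 4 arrays against 4 could resolve in a fit of genotype alone, with no term for replicate number. From the estimate to either bound they ran from 0.274 log2 units for Dusp8 to 1.02 for Dusp1. For 8 of the 10 genes the whole interval lay inside -1 to 1, and for Dusp1 and Dusp2 it did not. The standard errors of those 2 were 0.459 and 0.344. They were 0.184 and 0.107 with a term for replicate number, though the labels do not pair the samples by it. In the authors' deposited table the p-values of the 10 genes ran from 0.204 for Dusp10 to 0.966 for Dusp5. Without Elektra replicate 2, and without that array together with Elektra replicate 3 and wild-type replicate 4, 0 members passed as well.

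**Figure D4:**
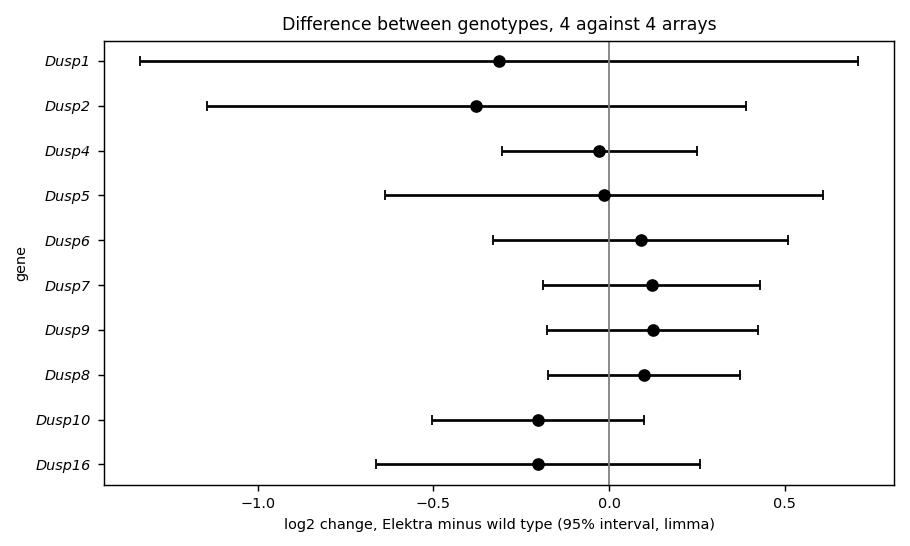
Log2 change of each phosphatase gene, Elektra minus wild type (horizontal axis), with the 95% interval of the limma fit over 4 against 4 arrays. All 10 intervals include 0, and those of Dusp1 and Dusp2, from -1.34 to 0.71 and from -1.14 to 0.39, reach beyond -1.

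The kinases that these enzymes act on were listed with other genes of their pathways, among them activators, scaffolds and kinases downstream of p38. None of the 17 ERK pathway, 11 JNK pathway and 10 p38 pathway genes passed an adjusted p of 0.05 in either direction (limma). At an unadjusted p under 0.05 the ERK list had 3 genes lower and 0 higher, where 2.87% of all genes were lower and 2.63% higher. Of its genes 13 of 17 were negative, where 14264 of all 30918 were, and the median log2 change was -0.15. Sos1, an activator of Ras, was 4.78 ± 0.17 (Elektra) and 5.19 ± 0.21 (wild type) (SD, n = 4), and Araf, a kinase upstream of ERK, was 5.82 ± 0.14 and 6.13 ± 0.14. Ksr1, the scaffold of that cascade, differed by -0.32 and Nras, a Ras gene, by -0.21 in log2 change. The mean of the ERK list was 4.90 in Elektra replicate 2, the array with the narrow spread, and 5.21 to 5.27 in the other Elektra arrays. Its part in these values was not tested.

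The JNK list had 0 genes at an unadjusted p under 0.05, where 5.5% of all genes passed, and a median log2 change of -0.16. Of its genes 9 of 11 were negative, where 14264 of all 30918 were. Map3k5, a stress-activated kinase upstream of JNK and p38, differed by -0.50, Mapk8, which encodes JNK1, by -0.38 and Map3k7, the kinase TAK1, by -0.20. Mapk10, which encodes the neuronal JNK3, was dim at 1.73 ± 0.05 and 1.89 ± 0.09 (SD, n = 4). The JNK list mean was likewise lowest in Elektra replicate 2, at 3.80 against 4.02 to 4.23 in the other Elektra arrays.

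Of the p38 list 7 of 10 genes were positive, where 16654 of all 30918 were, with a median log2 change of 0.11. At an unadjusted p under 0.05, 1 gene was higher, where 2.63% of all genes were, and the difference between the lists was not tested. That gene was Mapk11, which encodes p38 beta, at 4.30 ± 0.39 (Elektra) and 3.53 ± 0.05 (wild type) (SD, n = 4; limma adjusted p = 0.884), with no overlap between the genotypes, as for 3.23% of all genes. Mapk14, which encodes p38 alpha, was 6.28 ± 0.09 and 6.40 ± 0.22. Mapk13, which encodes p38 delta, differed by 0.14 and Tab1, an activator of p38 alpha, by 0.28 in log2 change. The mean of Mapk13 over all arrays was 2.10, just above the line of 2.09 for silent genes.

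Genes that ERK signalling induces did not pass either. Of 15 feedback and target genes, 0 passed an adjusted p of 0.05 and 0 an unadjusted p of 0.05 in limma. Of the 15 genes 5 were positive, where 16654 of all 30918 were, and the median log2 change was -0.09. Spry4, a Sprouty feedback inhibitor, was 2.58 ± 0.20 (Elektra) and 2.30 ± 0.23 (wild type) (SD, n = 4). Spred2, of a related family, differed by 0.20, Ier3 by -0.20 and Errfi1, a feedback inhibitor of the EGF receptor, by -0.15 in log2 change. Errfi1 lay within the silent range, with a mean of 1.72 over all arrays. Of the 18 immediate-early genes 0 passed adjusted and 1 an unadjusted p of 0.05 (limma), where 5.5% of all genes passed unadjusted. That 1 gene was Egr2, at 2.61 ± 0.09 and 2.36 ± 0.11 (SD, n = 4), whose arrays did not follow the replicate numbers. Maff differed by 0.18, Fosb by -0.77 (95% interval -2.43 to 0.89) and Atf3, a stress-induced factor, by 0.62 in log2 change.

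Other phosphatases gave no call. Of 16 atypical dual-specificity phosphatases and their pseudophosphatase relatives 0 passed an adjusted p of 0.05. At an unadjusted p under 0.05, 1 was higher, where 2.63% of all genes were, and the median log2 change was 0.03. Styx, a catalytically dead relative that binds ERK, was 4.27 ± 0.25 (Elektra) and 3.73 ± 0.15 (wild type) (SD, n = 4; limma adjusted p = 0.884), its lowest Elektra array at 3.96 and its highest wild-type array at 3.95. Dusp28 was 3.27 ± 0.07 and 3.02 ± 0.24. The genotypes did not overlap for these 2 of the 16 genes, where that held for 3.23% of all genes. Dusp26 differed by -0.12 and Styxl1 by 0.11 in log2 change, both within the silent range. Of 6 other phosphatases that can act on MAP kinases, 1 was lower at an unadjusted p under 0.05, where 2.87% of all genes were. That gene was Ppm1a, a serine and threonine phosphatase of p38 and JNK, at 4.47 ± 0.12 and 4.68 ± 0.07 (limma adjusted p = 0.884). Ppm1b differed by -0.23, Ptpn7, the haematopoietic tyrosine phosphatase of ERK and p38, by 0.09 and Ppm1d by 0.07 in log2 change.

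**Figure D5:**
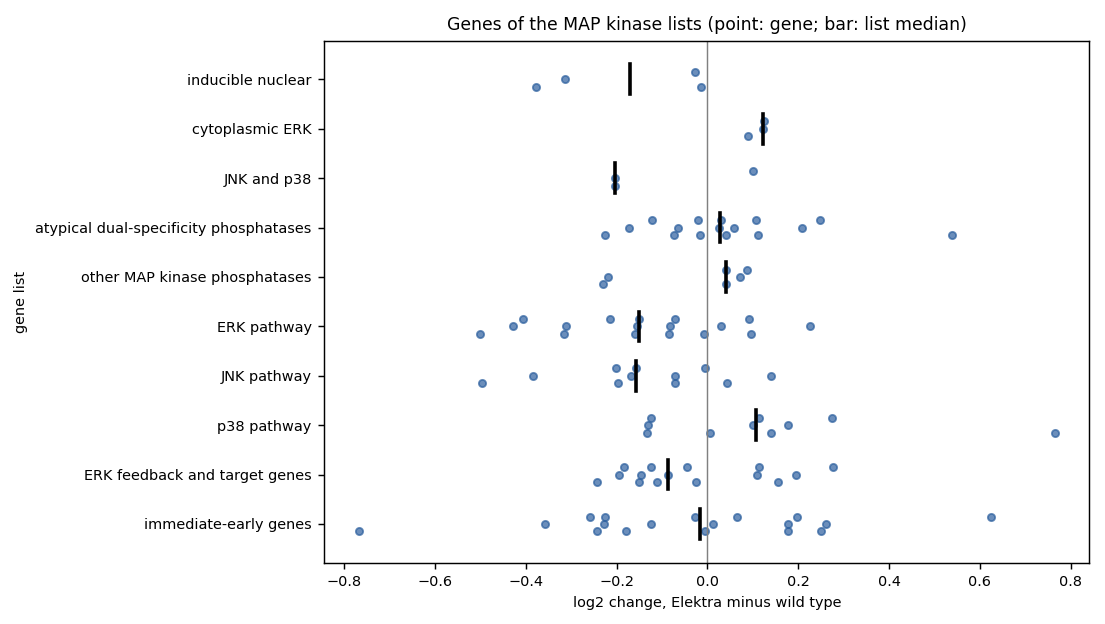
Log2 change, Elektra minus wild type (horizontal axis), of each gene (point) in the 3 phosphatase groups and 7 lists of related genes, with the list median as a bar. The medians run from -0.20 to 0.12, and Mapk11, Atf3 and Styx lie farthest to the right.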

How the data were processed

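RNA of sorted progenitors was hybridised to Affymetrix mouse arrays, 4 per genotype, after amplification of picogram amounts, per the labels' protocols. RMA in Affymetrix Expression Console (version 1.4) produced the log2 values that the authors deposited, as the submitters' processing notes record, and no genome build is named. The deposited annotated table holds 34390 probe sets, 31872 of them with 1 symbol. It also holds the authors' p-values, which a pooled-variance test matched to within 2.88e-12, and a signed fold change, taken as a score and not used. A second deposited table of log2 values differed by at most 0.291. No depth applies to arrays, and their number limits precision.

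The brightest probe set stood for each gene. Genotypes were compared with limma 3.58.1 in R 4.3.3 (lmFit, eBayes, two-sided tests), adjusting p by Benjamini-Hochberg over 30918 genes, after a check on simulated data. Named are all members, up to 4 genes with the smallest p of each related list, and 4 nearest genes of the 3 most variable members above the median level. The members, lists and rules were chosen with earlier results of these data known. Other settings tried were the second table, array normalization, a filter on dim probe sets, their summary per gene, the variance model, weights on arrays, the replicate block and left-out arrays.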

Additional observations from a re-analysis of the deposited data

Results flagged for a closer look

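Among the 20 groups of 4 arrays, one for each member and genotype, 1 held a sample far from the rest. Dusp5 read 6.16 in Elektra replicate 1 against 5.06 to 5.21 in the other Elektra arrays, the gap making up 0.86 of the group's range, above the critical value of 0.829. Chance flags about 5% of such groups.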

How the results depend on the processing

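Under all 19 other settings tried 0 members and 0 of all genes passed an adjusted p of 0.05, and 0 members passed at 0.10. The median log2 change of the members ran from -0.15, lacking Elektra replicate 1, to 0.09, lacking Elektra replicate 3, moving by less than the spread between replicates of 0.155. Signs turned for several small differences. With quantile normalization Dusp4 was 0.034 and Dusp5 0.052 in log2 change. Without Elektra replicates 2 and 3 and wild-type replicate 4 together, a choice made with earlier results known, Dusp5 was 0.16, Dusp8 -0.0745 and Dusp16 0.16. On leaving out 1 array at a time, the log2 change ran from -0.58 to 0.10 for Dusp1, from -0.0961 to 0.0559 for Dusp4, from -0.27 to 0.16 for Dusp5 and from -0.0892 to 0.20 for Dusp6. The cause was not tested. The replicate numbers do not pair the samples by the labels, and deviations of same-numbered arrays correlated at 0.192, 0.0401, 0.159 and 0.0731, with 2 of the 4 Elektra arrays correlating best with their own number. With the replicate block, 1 member had an unadjusted p under 0.05, Dusp2 (limma adjusted p = 0.772), whose SE went from 0.344 to 0.107 at the same log2 change of -0.38.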
